A study of Mus musculus with 48 samples.

Results

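Genes that mark resident and recruited macrophages were followed across the tissues of mice killed 9 days after Roux-en-Y gastric bypass (RYGB) or a sham operation. The members are Adgre1, Cd68, Csf1r, Clec4f, Marco, Cd163, Mrc1, Ccr2, Ly6c2 and Chil3, chosen by name as macrophage genes, and their lines were taken by Ensembl identifier, so that Adgre1 was found under its older symbol Emr1. They make up 10 of the 15541 genes listed in any tissue. All 10 were listed in liver, 9 in subcutaneous white adipose tissue (WAT), 6 in gastrocnemius muscle and 2 in the villi of the duodenum, jejunum and ileum.

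The mice were male C57BL/6 animals with diet-induced obesity, raised on a high fat diet. After RYGB or sham surgery both groups received a liquid elemental diet for 9 days, and they were fasted overnight before they were killed in the morning. RYGB joins a small gastric pouch to the jejunum, so that food bypasses most of the stomach and the duodenum. There were 48 stranded mRNA libraries: 4 per group in liver, WAT and muscle, 5 per group in the ileum, and 3 after RYGB against 4 after sham surgery in the duodenum and in the jejunum. The sources used here do not say whether the groups were matched for body weight or food intake on day 9, and whole tissue was used except in the intestine, where villi were scraped off after EDTA.

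Macrophages in an adult tissue come from cells that settled there early in life and from blood monocytes that enter later. Kupffer cells, the resident macrophages of the liver sinusoids, carry Clec4f, and many resident macrophages carry scavenger receptors such as Marco, Cd163 and Mrc1. Monocytes that leave the blood follow the chemokine Ccl2 through its receptor Ccr2, and the growth factors Csf1 and Il34 keep macrophages alive through Csf1r. In obese adipose tissue, macrophages gather around dying adipocytes.

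Values are CPM, a gene's counts scaled to a common library total, and the groups were compared within each tissue with limma on log2(CPM + 1). Fold changes are on that scale, which understates the change of genes with low values. A gene was called when its adjusted p was under 0.05 and its fold change at least 1.5. Without a scaling step beyond CPM, the median of all tested genes moved by 0.13 in liver, 0.11 in WAT and 0.12 in duodenum on the log2 scale, and each change stands against that shift. With median-ratio scaling every called member of liver and WAT kept its direction. The depth of the libraries is unknown. The labels do not tie a library to a separate mouse beyond its number. The p-values therefore weigh the group difference against the spread between libraries within the groups.

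Some libraries stood apart. In liver, RYGB replicate 2 had the highest value among RYGB libraries for 9 of the 10 members. RYGB replicate 3 of liver had the lowest Marco and Cd163, and sham replicate 1 had the lowest value among sham libraries for 8 of 10. In WAT, RYGB replicate 4 was lowest for 5 of the 9 listed members and highest for the other 4. Among the sham libraries of WAT, replicate 4 was highest for 6 of the 9 and replicate 3 was lowest for 6. The labelled tissues carried their own markers: summed hepatocyte markers were 78700 to 116600 CPM in liver, adipocyte markers 3093 to 8633 CPM in WAT and fibre markers 104100 to 177500 CPM in muscle. The adipocyte sum was lower in every RYGB library of WAT than in every sham library, at 3093 to 5950 against 7240 to 8633 CPM.

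The sequence before the transcription start was taken from RefSeq (GRCm38.p6) for 8 of the members, and no entry was found for Adgre1 and Csf1r. Shown are the 250 bases upstream of Cd68, which moved in opposite directions in liver and WAT, and of Marco and Ly6c2, which rose most among the members in WAT. They lie at chr11:69666171-69666420, chr1:120505025-120505274 and chr15:75111972-75112221, each on the minus strand and written 5′ to 3′. Capitals mark GAGGAA, a core bound by PU.1, a transcription factor of macrophages and B cells.
Cd68: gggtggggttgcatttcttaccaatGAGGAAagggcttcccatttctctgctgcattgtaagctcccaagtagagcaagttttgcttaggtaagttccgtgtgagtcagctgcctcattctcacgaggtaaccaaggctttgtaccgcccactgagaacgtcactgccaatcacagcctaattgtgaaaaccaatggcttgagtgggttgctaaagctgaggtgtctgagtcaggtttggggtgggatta
Marco: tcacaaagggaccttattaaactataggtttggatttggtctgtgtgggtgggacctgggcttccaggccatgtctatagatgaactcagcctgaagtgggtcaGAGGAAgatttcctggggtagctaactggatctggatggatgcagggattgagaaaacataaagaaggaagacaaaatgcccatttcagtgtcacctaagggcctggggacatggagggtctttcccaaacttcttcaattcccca
Ly6c2: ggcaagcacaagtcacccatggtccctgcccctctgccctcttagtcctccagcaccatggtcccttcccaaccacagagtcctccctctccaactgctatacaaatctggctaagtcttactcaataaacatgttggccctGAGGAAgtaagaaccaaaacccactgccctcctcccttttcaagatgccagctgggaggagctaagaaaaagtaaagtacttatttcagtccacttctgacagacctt
Each of these windows held 1 match, and Mrc1 held 3, so that 4 of the 8 members had GAGGAA on either strand against 23.3% of all 32851 promoter windows of the same length. The C/EBP pattern TTNCNNAA was present in all 8 windows and in 36.8% of all promoters. The AP-1 pattern TGANTCA was found in 1 member, Cd68, and in 6.75% of all promoters. No match of one pattern overlapped a match of another in the members' windows. These are counts of letters and not of bound sites.

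All 10 are protein-coding genes on GRCm38 in the GENCODE M21 annotation. Cd68 lies at chr11:69664213-69666153, Marco at chr1:120474538-120505024, Ly6c2 at chr15:75108158-75111970, Ccr2 at chr9:124101950-124113557 and Chil3 at chr3:106147554-106167564. Adgre1 lies at chr17:57358691-57483527 and Mrc1 at chr2:14229392-14332057. Ly6c2 and Chil3 have close relatives, and reads could be split between them. Of the 50-base words of the Ly6c2 transcripts, 13.9% also occur in Ly6c1. For Chil3 26.9% also occur in some other gene, and 16.9% occur in Chil4, which was listed in no tissue. The other members shared at most 1.91% of their words with any other gene, and 873 exon bases of Csf1r overlap a gene on the opposite strand.

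In liver, 3 of the 10 members were called, and each was higher after RYGB: the monocyte chemokine receptor Ccr2, the chitinase-like protein Chil3 and the macrophage lysosomal protein Cd68. None was called lower. Of all genes tested in liver 7.08% were called, 5.79% as higher. The RYGB libraries lay entirely above the sham libraries for 4 members, these 3 and Adgre1, against 13.4% of all genes. Clec4f, the Kupffer cell lectin, was at 72.8 CPM per kilobase of exon after RYGB and at 80.5 in the sham group.

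Among the genes of all macrophages, Cd68 was at 30.1, 50, 35.5 and 25.4 CPM in the 4 RYGB livers and at 11.1, 19.8, 19.1 and 16.5 CPM in the 4 sham livers. Every RYGB library exceeded every sham library, and the fold change was 2.04 (log2 1.03 ± 0.22, SE, adjusted p = 0.0206). The call was lost without RYGB replicate 3 (adjusted p = 0.064) or without sham replicate 4 (adjusted p = 0.0534). Adgre1 encodes the F4/80 antigen of mouse macrophages. It was at 53.2, 262.1, 78.5 and 67.3 CPM after RYGB and at 18.3, 42.8, 40.1 and 44.6 CPM after sham surgery. The groups did not overlap, but replicate 2 stood far above the other RYGB libraries and the difference was not called (fold change 2.64, log2 1.4 ± 0.44, adjusted p = 0.0729). Csf1r, the receptor for Csf1 and Il34, ranged from 109.5 to 271 CPM after RYGB and from 65.5 to 114.7 CPM in the sham group, with overlap and an adjusted p of 0.121. With the sequencing lane as a covariate, both Adgre1 (adjusted p = 0.0104) and Csf1r (adjusted p = 0.0281) were called. Within the 3 lanes that held both groups, with 1 or 2 libraries of each, the log2 differences were 0.58 to 1.44 for Cd68, 0.31 to 2.6 for Adgre1 and 0.02 to 1.35 for Csf1r.

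Clec4f was at 158.4, 213.2, 147 and 200.8 CPM after RYGB and at 130, 244.3, 215 and 206.2 CPM in the sham livers. The groups overlapped over most of their range, with a fold change of 0.918 (log2 -0.12 ± 0.20, adjusted p = 0.712). Clec4f was listed in no other tissue. The ratio of Clec4f to Adgre1 CPM within a library was 0.813 to 2.98 in the RYGB livers and 4.62 to 7.10 in the sham livers, without overlap. The lower ratio came with higher Adgre1 values and overlapping Clec4f values.

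The scavenger receptors Marco and Cd163 were uneven among the RYGB livers. Marco, which binds bacteria and particles, was at 151.4, 854.3, 14.3 and 178.2 CPM after RYGB and at 22.9, 65.4, 53.9 and 33.2 CPM after sham surgery. RYGB replicates 1, 2 and 4 lay above the sham range and replicate 3 lay below it, and the difference was not called (fold change 3.31, log2 1.73 ± 0.93, adjusted p = 0.255). Without RYGB replicate 3 it was called (log2 2.78, adjusted p = 0.0351), and without RYGB replicate 2 the fold change was 1.80 (adjusted p = 0.546). Cd163, the receptor that takes up haptoglobin bound to haemoglobin, was at 19.6, 49.9, 2.5 and 32 CPM after RYGB and at 18.7, 36.2, 25.9 and 36.1 CPM in the sham group. Only RYGB replicate 3 fell outside the sham range on the low side, and without it the log2 fold change went from -0.65 to 0.16. In this library the Kupffer cell genes Timd4, at 1.9 CPM against 10.3 to 20.4 in the sham livers, and Vsig4, at 39.3 CPM against 43.8 to 74.1, were also low. Of the 15 Kupffer cell and tissue-resident genes listed besides the members, 4 lay below the sham range in it, 10 above (among them Cd5l and C1qa) and 1 within, and its Clec4f was not below that range. Mrc1, the mannose receptor, was at 51.3 to 97.7 CPM after RYGB and at 25.1 to 76.4 CPM in the sham group, and the overlapping groups gave an adjusted p of 0.221.

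Among the genes of recruited monocytes, Ccr2 and Chil3 separated the groups in liver. Ccr2 was at 15.9, 20.1, 29.4 and 10.2 CPM after RYGB and at 3.2, 4.8, 5.8 and 3.7 CPM in the sham group. The lowest RYGB library was above the highest sham library, and the fold change was 3.53 (log2 1.82 ± 0.27, adjusted p = 0.00534). Chil3, also called Ym1, is secreted by macrophages, monocytes and neutrophils. It was at 8, 51.6, 11.5 and 6.2 CPM after RYGB and at 1.4, 1.7, 0.6 and 0.4 CPM in the sham group, again without overlap. The fold change was 7.36 (log2 2.88 ± 0.52, adjusted p = 0.0117), and 4.78 without RYGB replicate 2 (adjusted p = 0.00145). Ly6c2, the surface antigen of inflammatory monocytes, was at 1.3, 8.8, 3.1 and 1.0 CPM after RYGB and at 0.6, 1.2, 0.8 and 0.4 CPM in the sham group. The groups met at their edges and Ly6c2 was not called (fold change 2.14, adjusted p = 0.126). Within lanes the log2 differences were 1.54 to 2.14 for Ccr2, 1.74 to 5.14 for Chil3 and 0.06 to 2.63 for Ly6c2.

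**Figure D1:**
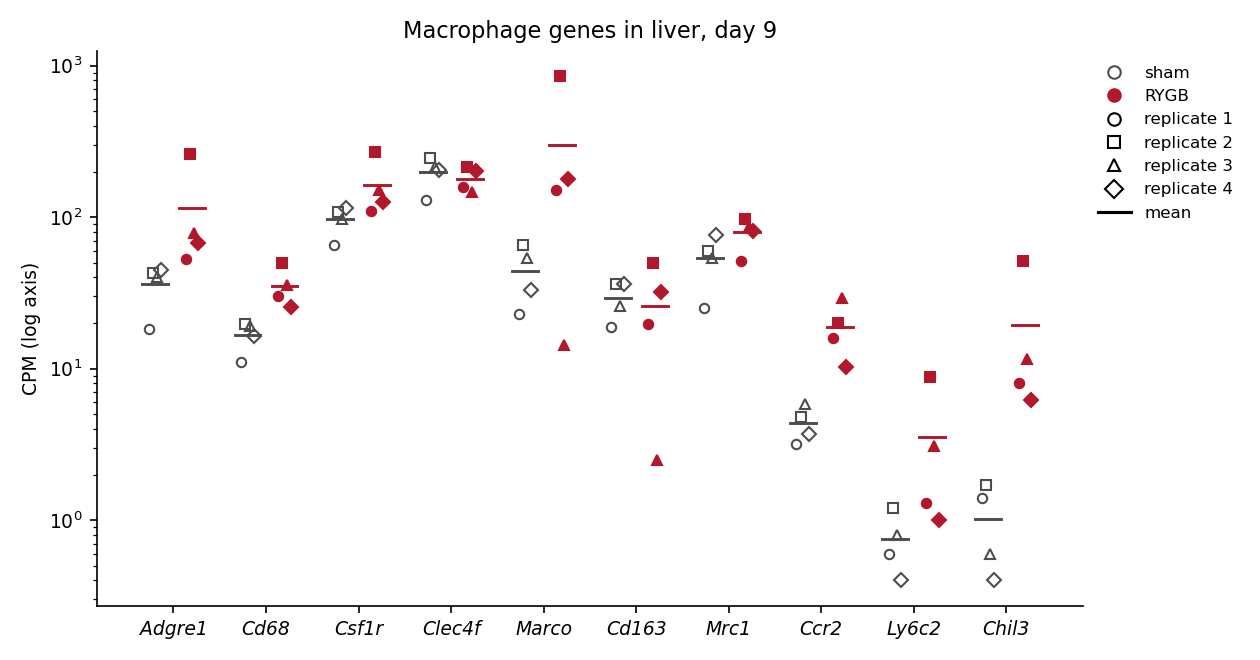
CPM on a log axis of the 10 macrophage genes in each of the 4 sham (open grey) and 4 RYGB (filled red) livers, with the marker shape giving the replicate and the line the mean. Ccr2, Chil3, Cd68 and Adgre1 separate the groups, Clec4f does not, and RYGB replicate 3 lies lowest for Marco (14.3 CPM) and Cd163 (2.5 CPM).

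Ligands of these receptors were higher in the same livers. They were read from a list of 9 growth factor and chemokine genes. It also holds Csf2, Csf3 and Cx3cl1, whose own receptors are not members. Of the 9 genes 5 were listed in liver, Cx3cl1 among them, and 4 were called higher: Ccl2 (fold change 4.05, adjusted p = 0.00506), the related Ccr2 ligand Ccl7 (2.38, adjusted p = 0.00748), Csf1 (1.79, adjusted p = 0.0332) and Il34 (1.60, adjusted p = 0.049). Ccl2 was at 8, 16.5, 6.5 and 4.8 CPM after RYGB and at 0.9, 1.6, 1.7 and 0.9 CPM in the sham group, and the groups did not overlap for any of the 4. The median log2 fold change over the 5 was 0.84 against 0.13 over all tested genes. Without RYGB replicate 2 only 1 of the 4 genes of this list then tested was called, and without RYGB replicate 3 it was 2 of 5. More or fewer cells of a type and more or less RNA per cell cannot be told apart in these bulk libraries.

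Other macrophage and monocyte genes in liver were read from lists that leave out the members. Of 12 genes of all macrophages 6 were called higher and none lower (median log2 0.90), among them Cd14, the endotoxin co-receptor (fold change 4.78), the integrin Itgam (4.71) and the lysozyme Lyz2 (3.50). Of 11 monocyte genes 6 were called higher (median 1.07), with S100a4 and Nr4a1 at a fold change of 3.03 and the fractalkine receptor Cx3cr1 at 2.97. This list holds Hp and Fn1, which hepatocytes also express. It summed to 6969 to 12970 CPM after RYGB and to 4654 to 7960 CPM in the sham livers. The part of hepatocytes in these values was not tested. Of 10 genes of lipid-associated macrophages 7 were called higher (median 1.70), led by the elastase Mmp12 (27.1-fold), Gpnmb (17.9-fold), the integrin Itgax (4.35-fold) and the lectin Lgals3 (4.06-fold). Of 15 Kupffer cell and tissue-resident genes 1 was called (median 0.56), Cd207, with a fold change of 2.53. None of the 15 was called without RYGB replicate 3, and without RYGB replicate 2 the median was 0.29. Of 6 scavenger receptor partners 1 was called, the fungal glucan receptor Clec7a (3.25-fold). The 6 macrophage genes and 6 monocyte genes fell to 3 each without RYGB replicate 3, when 329 genes in all were called instead of 836, and the count of lipid-associated genes was again 7.

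Among the lists of markers of other cells, only that of neutrophils held called genes in liver. Of 7 neutrophil genes 4 were called higher, and their summed level was 41.5, 658.7, 96.2 and 41.6 CPM in the RYGB livers against 12.3 to 20.8 CPM in the sham livers. S100a9, a neutrophil protein, was at 243.5 CPM in RYGB replicate 2 and at 15.7 to 34.1 CPM in the other RYGB livers. The neutrophil markers Ly6g, Mpo, Camp and Mmp8 were not listed. The 8 endothelial markers gave no call (sums of 316.6 to 505.2 against 142.5 to 390 CPM), and B cell markers summed to at most 8 CPM in any liver. Chil3 and the neutrophil sum were both highest in RYGB replicate 2, and the part of neutrophils in the Chil3 difference was not tested. Without that library 4 of 6 neutrophil genes were called, and without RYGB replicate 3 none of 7.

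In WAT, 5 of the 9 listed members were called, in both directions. Marco and Ly6c2 were higher after RYGB, while Adgre1, Cd68 and Mrc1 were lower. Of all genes tested in WAT 24.1% were called, 14.9% as higher and 9.23% as lower. The RYGB libraries lay entirely above the sham libraries for 2 members, against 26.1% of all genes, and entirely below them for 3, against 15% of all genes. The same 5 members made up both counts.

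Marco was at 88.5, 90.6, 108.5 and 393.4 CPM in the RYGB fat pads and at 1.1, 2.5, 1.9 and 2.6 CPM in the sham fat pads. The lowest RYGB library was far above the highest sham library. The fold change was 46.3 (log2 5.53 ± 0.45, adjusted p = 0.000123). It was 5.21 and 6.78 on the log2 scale within the 2 lanes that held both groups, the latter from 1 library per group. Per kilobase of exon, Marco was the lowest member in the sham fat pads at 1.05 CPM and after RYGB it was at 88.4 against 94.9 CPM for Cd68. Without RYGB replicate 4 these were 49.8 for Marco and 106.0 for Cd68. Replicate 4 was the highest, and leaving out any 1 library kept the log2 fold change between 5.03 and 5.74. The other scavenger receptors did not follow Marco. Mrc1 was at 218.7, 250.3, 162 and 69.7 CPM after RYGB and at 381.6, 386.5, 315.2 and 348.6 CPM in the sham group, without overlap (fold change 0.444, log2 -1.17 ± 0.35, adjusted p = 0.03). Cd163 was at 76, 70.8, 56.1 and 10.4 CPM after RYGB and at 134, 118.9, 61.6 and 95.5 CPM in the sham group. RYGB replicate 4 was far below the rest, the groups overlapped, and Cd163 was not called (fold change 0.438, adjusted p = 0.126) except with lane as a covariate (adjusted p = 0.0196). RYGB replicate 1 and sham replicate 3 were each alone in their lane, so the fit with lane draws no difference from them. These held the highest RYGB and the lowest sham value of Cd163. Without RYGB replicate 4 the fold change of Cd163 was 0.685 (adjusted p = 0.114).

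Cd68 was at 144.5, 156.4, 98.4 and 77.9 CPM in the RYGB fat pads and at 211.8, 202.3, 240.8 and 354.5 CPM in the sham fat pads. All RYGB libraries were below all sham libraries (fold change 0.469, log2 -1.09 ± 0.26, adjusted p = 0.0131), and the call held without any 1 library (adjusted p at most 0.0394). Adgre1 was at 130.2, 138.9, 81.9 and 42.6 CPM after RYGB and at 208.1, 161.4, 151.6 and 348.7 CPM in the sham group. It also separated the groups (fold change 0.437, log2 -1.19 ± 0.40, adjusted p = 0.0424). This call was lost without RYGB replicate 3 or 4 or any 1 of the sham libraries (adjusted p up to 0.102), and that of Mrc1 without RYGB replicate 3 or any 1 of the sham libraries (adjusted p up to 0.0722). Csf1r was at 294.8, 287, 255.9 and 246.9 CPM after RYGB and at 408.5, 389.4, 272.5 and 469.3 CPM in the sham group. A single sham library fell inside the RYGB range and Csf1r was not called (fold change 0.717, adjusted p = 0.0519). It was called when libraries were scaled by their median ratio (log2 -0.60, adjusted p = 0.0297), with lane as a covariate (adjusted p = 0.0116) and without sham replicate 3 (adjusted p = 0.0174). The fit with lane also draws no difference from sham replicate 3, so it is not separate from the fit without that library. Within the 2 lanes the log2 differences were -0.73 and -2.17 for Cd68, -0.77 and -3.0 for Adgre1, and -0.93 and -2.31 for Mrc1. The larger difference of each pair set 1 RYGB library against 1 sham library, replicate 4 of both groups.

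The monocyte members did not move together in WAT. Ly6c2 was at 14.1, 22.5, 24.5 and 61.2 CPM after RYGB and at 2.5, 2.9, 2.4 and 4.7 CPM in the sham group, and the groups did not overlap (fold change 6.79, log2 2.76 ± 0.39, adjusted p = 0.0019). The antigen it encodes is also carried by some T cells. Its relative Ly6c1, which endothelial cells express, went the other way, at 88.5, 119, 73 and 55.9 against 152.9, 158.9, 190.3 and 167.9 CPM (fold change 0.488, adjusted p = 0.00766). Ccr2 was at 47.2, 38.9, 65 and 79.9 CPM after RYGB and at 47.1, 62.8, 31.6 and 43.2 CPM in the sham group. These groups overlapped and Ccr2 was not called (fold change 1.23, log2 0.30 ± 0.26, adjusted p = 0.364). The ratio of Ly6c2 to Ccr2 CPM was 0.299 to 0.766 in the RYGB fat pads and 0.0462 to 0.109 in the sham fat pads. Chil3 was at 3.2, 8.5, 1.9 and 18.5 CPM after RYGB and at 1.5 to 5.6 CPM in the sham group, with overlap and an adjusted p of 0.4.

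**Figure D2:**
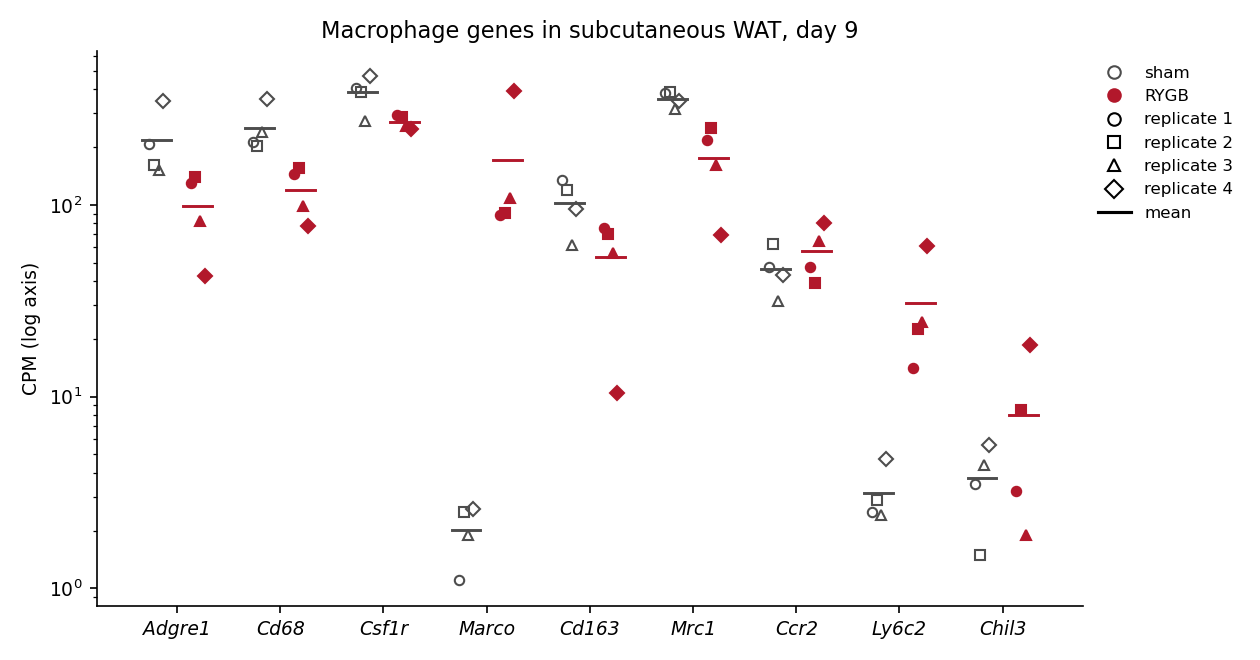
CPM on a log axis of the 9 listed macrophage genes in each of the 4 sham (open grey) and 4 RYGB (filled red) subcutaneous fat pads, with the marker shape giving the replicate and the line the mean. Marco (88.5 to 393.4 against 1.1 to 2.6 CPM) and Ly6c2 lie above the sham libraries, and Adgre1, Cd68 and Mrc1 lie below them.

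Other macrophage genes of WAT also split. Of 12 genes of all macrophages 2 were called higher, Laptm5 (fold change 2.04) and Aif1 (1.95), and 3 lower, among them Fcgr1 (0.556) and Itgam (0.577), with a median log2 of -0.40 against 0.11 over all genes. Of 14 Kupffer cell and tissue-resident genes 4 were called higher. These were the phosphatidylserine receptor Timd4 (10.1-fold), the secreted macrophage protein Cd5l (4.83-fold), the transcription factor Spic (4.63-fold) and the podoplanin receptor Clec1b (2.31-fold). Vsig4, Fcna and Hmox1 were the 3 called lower. Timd4 was at 50.1, 39.3, 81.7 and 127.1 CPM after RYGB and at 12.8, 7.1, 3.5 and 3.2 CPM in the sham group, so that it separated the groups as Marco did. The genes of lipid-associated macrophages had 3 of 10 called lower and none higher (median -0.99), Gpnmb (0.301), Lgals3 (0.375) and Spp1 (0.445), and Mmp12 was at a fold change of 0.521 (adjusted p = 0.0746). This list, which also holds Lpl and Cd36, summed to 4198 to 11800 CPM after RYGB and to 12340 to 15740 CPM in the sham fat pads. The part of adipocytes in these values was not tested. Of 9 scavenger receptor partners 3 were called lower, Clec10a (0.471), Stab1 (0.518) and Scarb1 (0.593).

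Of the same growth factor and chemokine list, 7 genes were listed in WAT, Cx3cl1 among them. After RYGB 3 were called lower, Ccl2 (fold change 0.359, adjusted p = 0.00861), Ccl7 (0.507, adjusted p = 0.0436) and Il34 (0.631, adjusted p = 0.0254). Ccl12, another Ccr2 ligand, was called higher (1.75, adjusted p = 0.0464). Ccl2 was at 9.5, 16.3, 6.3 and 10.9 CPM after RYGB and at 17.5, 34.5, 35.9 and 38 CPM in the sham group, without overlap. Csf1 was not called, at 79.6 to 101.2 against 93.1 to 138.1 CPM. Without RYGB replicate 4 the ligand calls went from 4 to 2, both lower.

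Lymphocyte markers moved with the WAT values. All 8 B cell markers were called higher, and their sum was 879, 1348, 1674 and 2292 CPM in the RYGB fat pads and 7.4 to 18.3 CPM in the sham fat pads. All 8 T cell markers were called higher, with sums of 355.1, 385.5, 519 and 1352 CPM against 12.5 to 22.3 CPM. Of 8 dendritic cell markers 5 were called higher, led by the chemokine receptor Ccr7 (35.3-fold). Of 7 endothelial markers 6 were called lower, and the scavenger receptor Stab2 was called higher (3.46-fold). Marco, Ly6c2, Timd4 and the B and T cell sums all had their highest value in RYGB replicate 4, and in the sham libraries the B cell receptor chain Cd79b was at 1.6 to 4.7 CPM. Marco started from another level in liver, at 22.9 to 65.4 CPM in the sham group. After RYGB it was there at 14.3 to 854.3 CPM, and Cd79b was at 1.3 to 4.3 CPM. The part of lymphocytes and of cells that come with them in the WAT values was not tested. Without RYGB replicate 4 the 8 B cell and 8 T cell markers were still called higher and Marco kept a log2 fold change of 5.03.

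**Figure D3:**
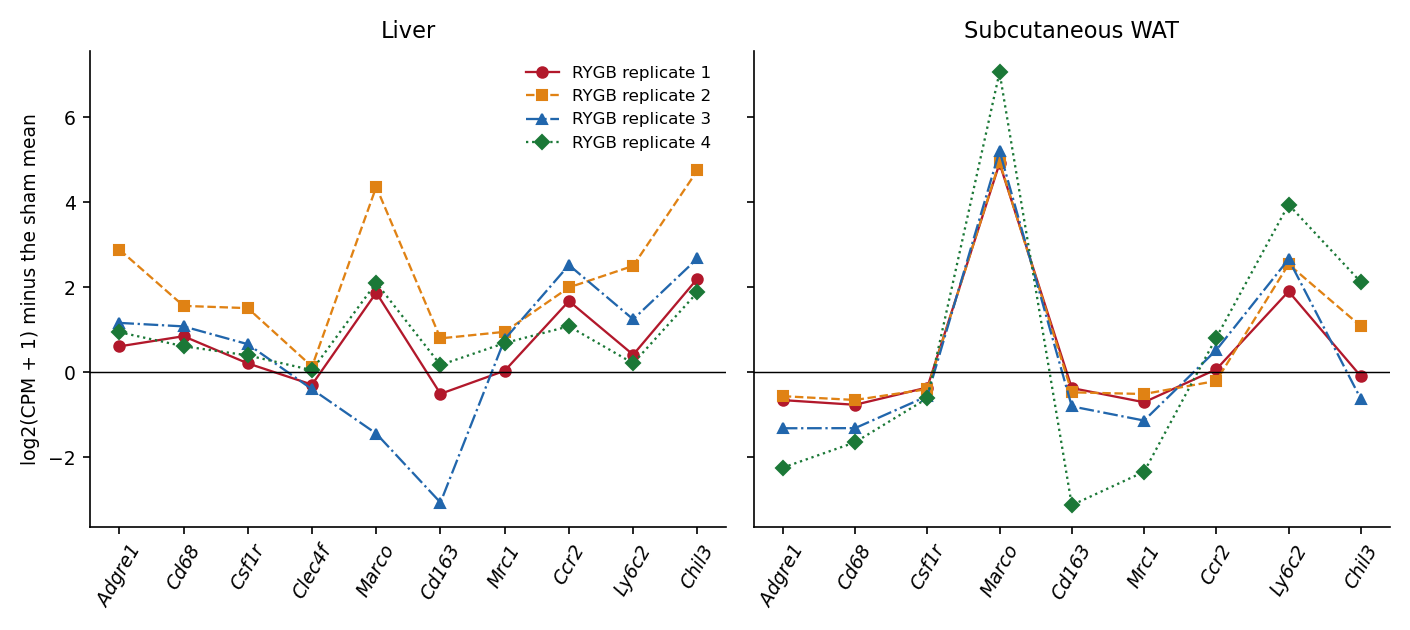
Difference of log2(CPM + 1) from the sham mean for each macrophage gene in each of the 4 RYGB libraries of liver (left) and subcutaneous WAT (right), with 1 line per library. In liver, replicate 2 is the highest for 9 of 10 genes and replicate 3 falls below the sham mean at Marco and Cd163. In WAT all 4 libraries peak at Marco, and replicate 4 is the lowest for 5 genes.

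In muscle none of the 6 listed members was called, and 0% of all genes were called with limma, although 1746 genes had an unadjusted p under 0.05. Csf1r was the member with the largest fold change, at 25.1, 16.2, 15.7 and 13.7 CPM after RYGB and at 8.1, 13.8, 21.9 and 13.7 CPM in the sham group (fold change 1.25, adjusted p = 0.635). The groups overlapped for all 6. The other fold changes ran from 1.01 for Cd163 to 1.22 for Ccr2, with Mrc1 at 1.04, Cd68 at 1.03 and Adgre1 at 1.12, and with median-ratio scaling Cd163, Mrc1 and Cd68 turned to values just under 0 on the log2 scale. Sham replicate 1 had the lowest sham value for 6 of 6 members. In the 1 lane that held both groups, with 2 libraries of each and sham replicate 1 among them, the log2 differences were 0.46 to 0.87. Over all lanes but without sham replicate 1, the log2 fold changes ran from -0.353 for Cd68 to 0.115 for Ccr2. No gene of the macrophage, monocyte or ligand lists was called in muscle.

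In the villi only Csf1r and Mrc1 were listed, and neither was called. In the duodenum Csf1r was at 9.6, 3.5 and 7.5 CPM after RYGB and at 3.4, 1.1, 0.4 and 1.1 CPM in the sham group. The lowest RYGB library was just above the highest sham library, with a fold change of 3.24 (log2 1.70 ± 0.42, adjusted p = 0.142), in a tissue where 0.00922% of all genes were called. How many of all genes lay without overlap in the duodenum was not counted. With a pseudocount of 0.1 the fold change was 5.1 (adjusted p = 0.156). Mrc1 overlapped between the groups there, at 4.4 to 6.2 against 1.6 to 6.3 CPM. T cell markers summed to 40.6 to 91.9 CPM in the RYGB duodenum and to 14.7 to 47 CPM in the sham duodenum, and their part in the Csf1r values was not tested.

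In the jejunum Mrc1 was at 13.5, 11.8 and 8.3 CPM after RYGB and at 3.5, 7.9, 3 and 5.8 CPM in the sham group. The groups did not overlap and the fold change was 2.09, short of the threshold (log2 1.06 ± 0.31, adjusted p = 0.0564), while 9.75% of all genes were called. How many of all genes lay without overlap in the jejunum was not counted. It was called without sham replicate 2 (adjusted p = 0.0288), and the log2 difference was 1.02 in the lane that held both groups. Csf1r was at 0.9 to 2.8 against 1 to 2.5 CPM. In the ileum, where 6.05% of all genes were called, Mrc1 was at 6.4, 5.1, 8.5, 5.1 and 3.7 CPM after RYGB and at 3.1, 4.5, 1.4, 1.1 and 3.7 CPM in the sham group. The groups overlapped (fold change 1.87, log2 0.90 ± 0.29, adjusted p = 0.0701), and the surgery and the sequencing lane cannot be told apart in the ileum, since no lane held both groups. Csf1r was at 0.7 to 2.0 against 0.5 to 2.7 CPM. Of 9 genes of all macrophages listed in the ileum 4 were called lower (Laptm5, Fcer1g and Mertk among them) and 1 higher (Cd14), and in the jejunum 2 were called lower (Fcer1g among them) and 1 higher (Cd14). Laptm5 and Fcer1g are also expressed by other leukocytes. T cell markers were lower in the same tissues, with 4 of 5 listed called lower in the ileum (sums of 5.3 to 17.2 against 23.9 to 61 CPM) and 5 of 6 in the jejunum (8.2 to 16.6 against 38.5 to 61.6 CPM), and their part in these counts was not tested. The macrophage list summed to 439.4 to 476.7 CPM in the RYGB ileum and to 598.1 to 835.1 CPM in the sham ileum, where Csf1r was at most 2.7 CPM. In muscle, where Csf1r was at 8.1 to 25.1 CPM, the list summed to 62.8 to 185.7 CPM. The part of other villus cells in the list was not tested.

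**Figure D4:**
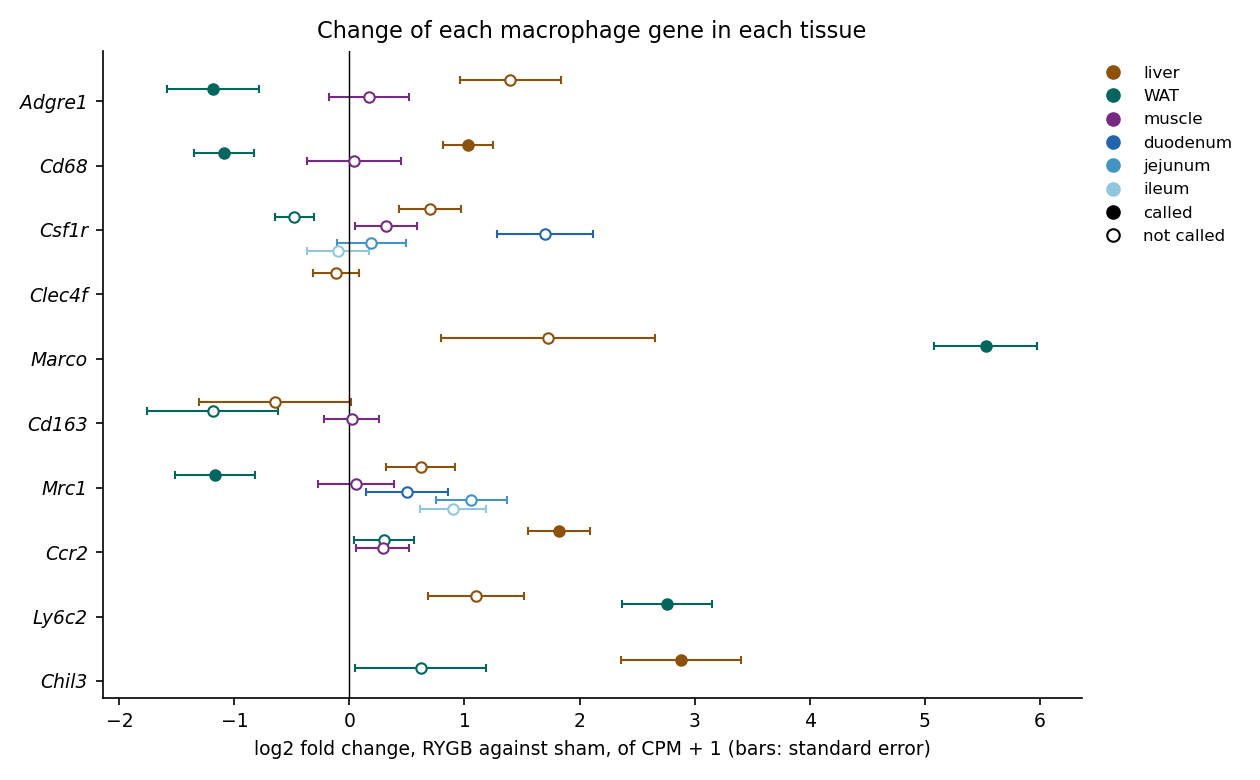
Log2 fold change of CPM + 1 in RYGB against sham, with its standard error, for each macrophage gene (rows) and each tissue in which it was listed (colours), where filled points were called. Marco in WAT lies at 5.53, and Adgre1 and Cd68 lie to the right of 0 in liver and to the left of 0 in WAT.

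Levels across tissues are a description, since each table was normalized on its own. Per kilobase of exon, the sham livers held most Clec4f (80.5 CPM), followed by Marco (22.8), Csf1r (16.7), Cd68 (13.2), Adgre1 (11.3), Mrc1 (8.44) and Cd163 (5.35), with Ccr2, Chil3 and Ly6c2 under 1 CPM. The sham fat pads held most Cd68 (201 CPM per kilobase), followed by Adgre1 (67.1), Csf1r (66.7), Mrc1 (56.2), Cd163 (18.8) and Ccr2 (6.83). In the sham mice Clec4f thus led in liver and Cd68 in fat. In the RYGB livers Marco had the highest mean, at 156 against 72.8 CPM per kilobase for Clec4f, but without RYGB replicate 2 Marco was at 59.5 and Clec4f at 68.3. In muscle the levels ran from 0.78 CPM per kilobase for Ccr2 to 4.89 for Cd68.

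For Csf1r and Mrc1 the order of tissues could be given over all 6. In the sham mice Csf1r was highest in WAT (384.9 ± 82.3 CPM, SD, n = 4), then in liver (96.5 ± 21.8, n = 4) and muscle (14.4 ± 5.68, n = 4). The jejunum (1.58), duodenum (1.5) and ileum (1.48 CPM) followed, and these last 3 overlapped in range while the others did not. Mrc1 had the same leading order, with 358 ± 33.1 CPM in WAT, 53.8 ± 21.4 in liver and 19.3 ± 10.3 in muscle, and its liver and muscle ranges overlapped. Mrc1 was above Csf1r in CPM per kilobase in each sham villus tissue, at 0.793 against 0.273 in jejunum, 0.612 against 0.26 in duodenum and 0.433 against 0.256 in ileum. After RYGB the ranges of WAT and liver overlapped for both genes, which they did not in the sham mice, but each overlap rested on 1 library. For Csf1r it was liver RYGB replicate 2, without which the highest liver was at 150.1 CPM against at least 246.9 in WAT. For Mrc1 it was WAT RYGB replicate 4, without which the lowest fat pad was at 162 CPM against at most 97.7 in liver.

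**Figure D5:**
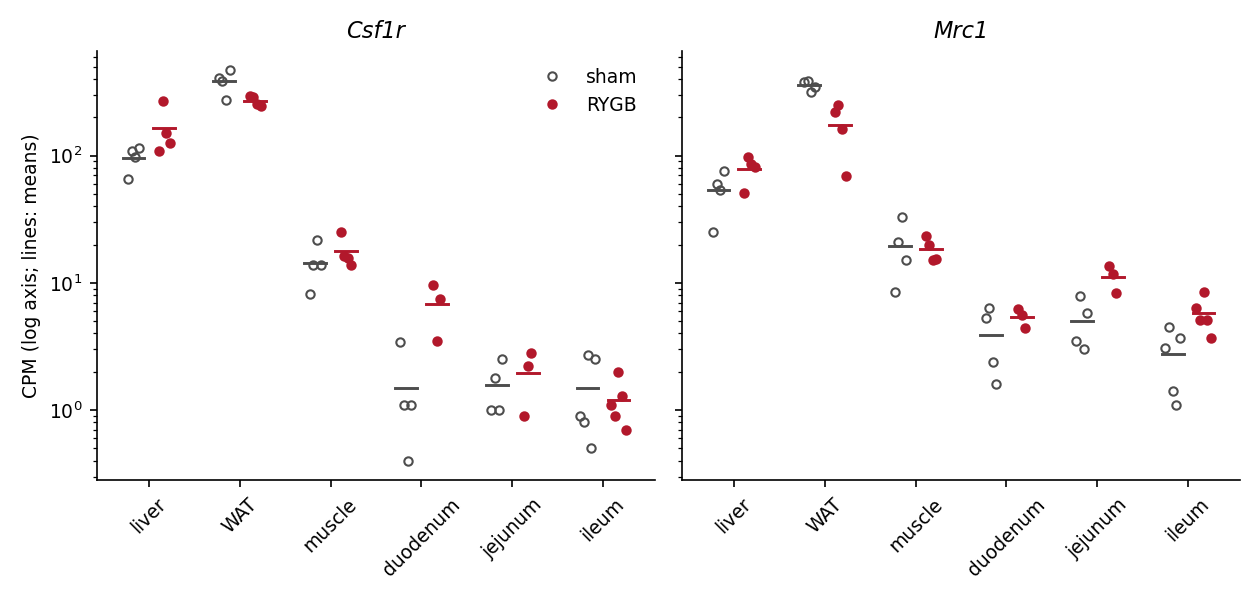
CPM on a log axis of Csf1r (left) and Mrc1 (right) in each sham (open grey) and RYGB (filled red) library of the 6 tissues, with lines for the means. Both genes are highest in WAT and lowest in the villi by their means.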

How the data were processed

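The authors deposited CPM rounded to 0.1, in 1 table per tissue, a unit that was inferred from the column totals and decimals. In the ileum and jejunum tables the deposited columns were entered as signal, because repeated lines raise their totals above the CPM total. The deposited column of liver sham replicate 4 was entered as score, because 12 lines lack sham replicate 3 and hold another kind of number there. These lines were left out and repeated lines counted once. The submitters' processing notes name HTSeq and GRCm38, and the aligner, annotation and strand setting are not given in the sources used here. Below 5 CPM at most 2 of the 50 possible values went unused in any library, so the worth of 1 read could not be read from them.

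Within a tissue the groups were compared by limma 3.58.1 in R 4.3.3 (moderated variances with an intensity trend) on log2(CPM + 1), for genes whose mean reached 1 CPM, with Benjamini-Hochberg adjustment over all genes tested. The method was tested on simulated data. The members and lists were chosen with earlier results of these data known. All members were named, with the ligands of their receptors, their close relatives and, from each list, up to 4 called genes with the largest change. Some other genes, and the list counts and levels per kilobase without a library that stood apart, were chosen after their values were seen. Some results of the lists are not reported here. Alternatives were a pseudocount of 0.1, no filter, a mean of 10 CPM, median-ratio scaling, adjusted p alone, the replicate number as a block, lane as a covariate and leaving out each library. Equally numbered libraries correlated from -0.281 to 0.389, with all values over 0.1 in 0 of the 6 tissues. The labels state no pairing, and with so few libraries these values cannot exclude one. Positions and exon lengths are from GENCODE M21. Tables were read with pandas 2.3.3 (Python 3.11.15) and drawn with matplotlib 3.10.9.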

Additional observations from a re-analysis of the deposited data

Results flagged for a closer look

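Among 58 groups of 4 or 5 libraries, 3 had a library apart from the rest by the ratio of its gap to the group's range on the log2(CPM + 1) scale. Chance gives about 2.9. They were Adgre1 in sham replicate 1 of liver (0.879), Marco in RYGB replicate 4 of WAT (0.864) and Cd163 in RYGB replicate 4 of WAT (0.843).

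In 3 cases a member lay wholly above the sham libraries in one tissue and wholly below them in another. Of all genes 13.4% lay wholly above them in liver and 15% wholly below them in WAT. How many of all genes did both, or lay wholly above them in jejunum, was not counted. The log2 fold change in liver minus that in WAT was 2.59 for Adgre1 and 2.12 for Cd68, and for Mrc1 that in jejunum minus that in WAT was 2.23. The differences were not tested, because each tissue has its own table and scale, and Adgre1 in liver and Mrc1 in jejunum were not called on their own.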

How the results depend on the processing

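The number of members called in liver was 3, and it was 7 with the replicate block, which added Adgre1, Csf1r, Mrc1 and Ly6c2, and 5 with lane as a covariate. Calls over all 11807 genes tested in liver rose as well, from 836 to 1236 with the block and to 1090 with lane. The labels do not state that equal numbers pair the libraries, so the block has no stated basis in the design. In WAT the number was 5 and stayed between 4 and 7 under the other settings. With the replicate block Adgre1 was lost (adjusted p = 0.0722). The 7 came with lane as a covariate, when 4049 genes in all were called instead of 3231. In jejunum it was 0, and 1 (Mrc1, adjusted p = 0.0422) with the replicate block. Leaving out each library gave 2 to 4 calls in liver, 3 to 5 in WAT (3 without RYGB replicate 3 or sham replicate 1, 2 or 4), 0 to 1 in jejunum and 0 in muscle, duodenum and ileum. Calls over all genes then ran from 329 to 1204 in liver and from 2460 to 3765 in WAT. The cause was not tested.

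No called value turned its sign. Among the others, signs turned with scaling for Cd68 (-0.008), Cd163 (-0.033) and Mrc1 (-0.001) in muscle, and, leaving out each library, for Cd163 in liver (-1.131 to 0.156), Adgre1 (-0.094 to 0.479), Cd68 (-0.353 to 0.428), Cd163 (-0.203 to 0.137) and Mrc1 (-0.26 to 0.351) in muscle, and Csf1r in jejunum (-0.021 to 0.479) and ileum (-0.258 to 0.068). With a pseudocount of 0.1 the fold change of Chil3 in liver was 13.4, that of Ly6c2 3.22 and that of Csf1r in duodenum 5.1. Scaling lowered the share of calls that were higher from 81.8% to 66.4% in liver, from 61.8% to 49.6% in WAT, and raised it from 27.1% to 46.4% in ileum. A lane term could not be fitted in the ileum. Rounding to 0.1 CPM limits genes under about 1 CPM.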
